A study of Mus musculus with 3 samples.

Results

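The genes described here, all of the actin cytoskeleton, were followed through 3 single-cell libraries of mouse dentate gyrus: Actb, Actg1, Tmsb4x, Tmsb10, Cfl1, Pfn1 and Cnn3. They are 7 of 15535 genes listed in at least 1 of the 3 count tables, and all 7 were listed in each table. They were picked by name with measured values of these libraries already known, so their levels are a description and were not tested. The 3 libraries, 1 per group, came from 8-week-old mice in standard housing (control), 8-week-old littermates given a wheel to run on over 12 days (runner) and 14-month-old mice without a wheel (aged). The labels give the strain hGFAP-eGFP for every library, a green fluorescent reporter driven by a human GFAP promoter, while the study design writes WT and mentions that reporter just for the 14-month-old animals. How many mice went into a library is not stated, and the labels describe trypsin digestion and a sucrose step without a sort. With 1 library per group, age, running and everything else that differed between preparations cannot be told apart, and no p-value is given.

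Actin monomers assemble into filaments that shape cells, move membranes and carry growth cones. Actb and Actg1 encode the cytoplasmic beta- and gamma-actins. Tmsb4x and Tmsb10 encode beta-thymosins, small proteins that hold actin monomers in reserve. Pfn1 encodes profilin, which delivers monomers to growing filament ends, Cfl1 encodes cofilin, which severs and disassembles filaments, and Cnn3 encodes acidic calponin, an actin-binding protein. In the dentate gyrus, the hippocampal region that keeps making granule neurons in adult mice, the beta-thymosins are known for high expression in microglia (Tmsb4x) and in immature neurons (Tmsb10).

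The actins are a pair of close paralogs, and so are the thymosins, so the coding sequences are shown to make plain how far reads can tell the members of each pair apart. The coding sequences of Actb and Actg1 are each 1128 bases long and differ at 128 bases (88.7% identity). Their first 90 coding bases follow, from GENCODE transcripts on GRCm38, 5′ to 3′, with the bases that differ between the genes in capitals. On GRCm38 (GENCODE M21) the genes lie at chr5:142903115-142906754 (Actb, minus strand), chr11:120345690-120348542 (Actg1, minus), chrX:167207093-167209315 (Tmsb4x, minus), chr6:72957347-72958748 (Tmsb10, minus), chr19:5490455-5495201 (Cfl1, plus), chr11:70651850-70654644 (Pfn1, minus) and chr3:121426497-121458207 (Cnn3, plus). The Actb stretch is chr5:142905597-142905686 and the Actg1 stretch chr11:120348002-120348091, both on the minus strand.
Actb: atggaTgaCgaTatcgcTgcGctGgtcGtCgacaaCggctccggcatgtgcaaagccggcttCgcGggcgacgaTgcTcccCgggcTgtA
Actg1: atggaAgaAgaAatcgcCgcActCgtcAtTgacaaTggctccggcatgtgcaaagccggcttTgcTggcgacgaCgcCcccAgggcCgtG

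The whole coding sequences of the thymosins, 135 bases each, differ at 40 bases (70.4% identity). That of Tmsb4x lies within chrX:167207501-167208036 and that of Tmsb10 within chr6:72957618-72958012, both spliced and on the minus strand, again with differing bases in capitals.
Tmsb4x: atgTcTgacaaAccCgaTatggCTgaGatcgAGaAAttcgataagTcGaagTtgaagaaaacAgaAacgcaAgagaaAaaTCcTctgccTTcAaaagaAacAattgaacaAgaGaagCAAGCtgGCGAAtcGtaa
Tmsb10: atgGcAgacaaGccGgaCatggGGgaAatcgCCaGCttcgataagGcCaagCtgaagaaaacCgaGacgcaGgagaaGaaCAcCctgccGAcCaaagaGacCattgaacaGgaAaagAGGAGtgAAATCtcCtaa

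These libraries read the 3′ end of each RNA, where the pairs are less alike: over the last 200 bases of the transcripts, alignment identity was 49.8% for the actins and 42.1% for the thymosins. Copies elsewhere in the genome leave some uncertainty. Gm9844, a near copy of Tmsb10, held 43.0% of the 31-base words of the Tmsb10 transcript and had 118 unique molecular identifiers (UMIs, each standing for 1 captured RNA molecule) beside the 3465 of Tmsb10. Lrrc58 held 22.7% of the 31-base words of Actb and had 308 UMIs beside 18641. The other genes listed in the tables with more than 5% shared words had 17 UMIs or fewer, apart from the actins themselves. How the authors' counting divided reads between such copies is not stated.

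The serum response factor is a regulator known to drive actin genes through a motif called the CArG box. Of the members with an entry in the RefSeq promoter table (GRCm38.p6, 250 bases before to 50 after a start), Actg1 held a CArG box, 90 bases before its start. It is printed in capitals here within 60 bases of chr11:120348551-120348610, minus strand.
Actg1 promoter: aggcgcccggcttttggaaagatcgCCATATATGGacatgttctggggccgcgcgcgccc
The windows of Tmsb4x, Tmsb10, Cfl1, Pfn1 and Cnn3 held none on either strand, a window of Actb was not analysed here, and 535 of 32851 promoter windows in the table (1.63%) held one. Srf itself had 10 UMIs over all microglia-like cells and between 1 and 7 in each of 6 other classes, too few for a comparison.

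After the filters, 512 control, 963 runner and 391 aged cells remained, with median depths of 1460, 1747 and 1409 UMIs per cell. Cells were grouped into classes by marker genes, each name meaning like that type, and the members were kept out of the clustering. The 7 classes with at least 10 cells in every library were microglia-like (244 control, 354 runner and 201 aged cells), astrocyte-like (64, 124 and 52), neuroblast-like (32, 171 and 12), oligodendrocyte-like (44, 119 and 46), Cajal-Retzius-like (49, 73 and 32), mature neuron-like (31, 58 and 14) and oligodendrocyte precursor-like (20, 32 and 22). Between 8 and 10 barcode sequences were shared by each pair of libraries, and 2 of the cells used in both runner and aged were among them. The dissociation stress genes summed to 22749, 17583 and 21185 CPM (UMIs per 1e6 UMIs) in control, runner and aged cells. Xist (693, 1620 and 859 UMIs) and the Y-linked Ddx3y (51, 69 and 15) were both present in every library, so each held RNA of both sexes. A level below is the CPM of a gene over all UMIs of a class in a library, and brackets give 95% exact intervals that cover counting error only, not the spread between cells or animals.

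Beta-actin was highest in microglia-like cells of all 3 libraries. Actb stood at 11002 CPM in control, 6751 in runner and 10178 in aged microglia-like cells. Astrocyte-like cells had the lowest level of the 7 classes in each library, at 2266, 1491 and 1322 CPM, which put the span from the highest to the lowest class at 4.85-fold, 4.53-fold and 7.70-fold. Neuroblast-like cells had 5654, 4562 and 9642 CPM, and in the aged library their interval (8281 to 11163) overlapped that of microglia-like cells (9818 to 10547). Outside these classes, the 16 endothelial-like cells of the control library had 18842 CPM (17051 to 20769), above every class named so far. The runner and aged libraries held 1 and 2 such cells, too few for a level.

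Gamma-actin had another order of classes. Actg1 was highest in neuroblast-like cells, at 1544, 1566 and 1347 CPM in control, runner and aged, with microglia-like cells next at 1349, 1443 and 1250. The intervals of these classes overlapped in each library, so their order is not set by these counts. Mature neuron-like cells were lowest in control and runner, at 349 and 432 CPM, and oligodendrocyte-like cells were lowest in aged, at 284. The intervals of these and of astrocyte-like cells overlapped.

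**Figure D1:**
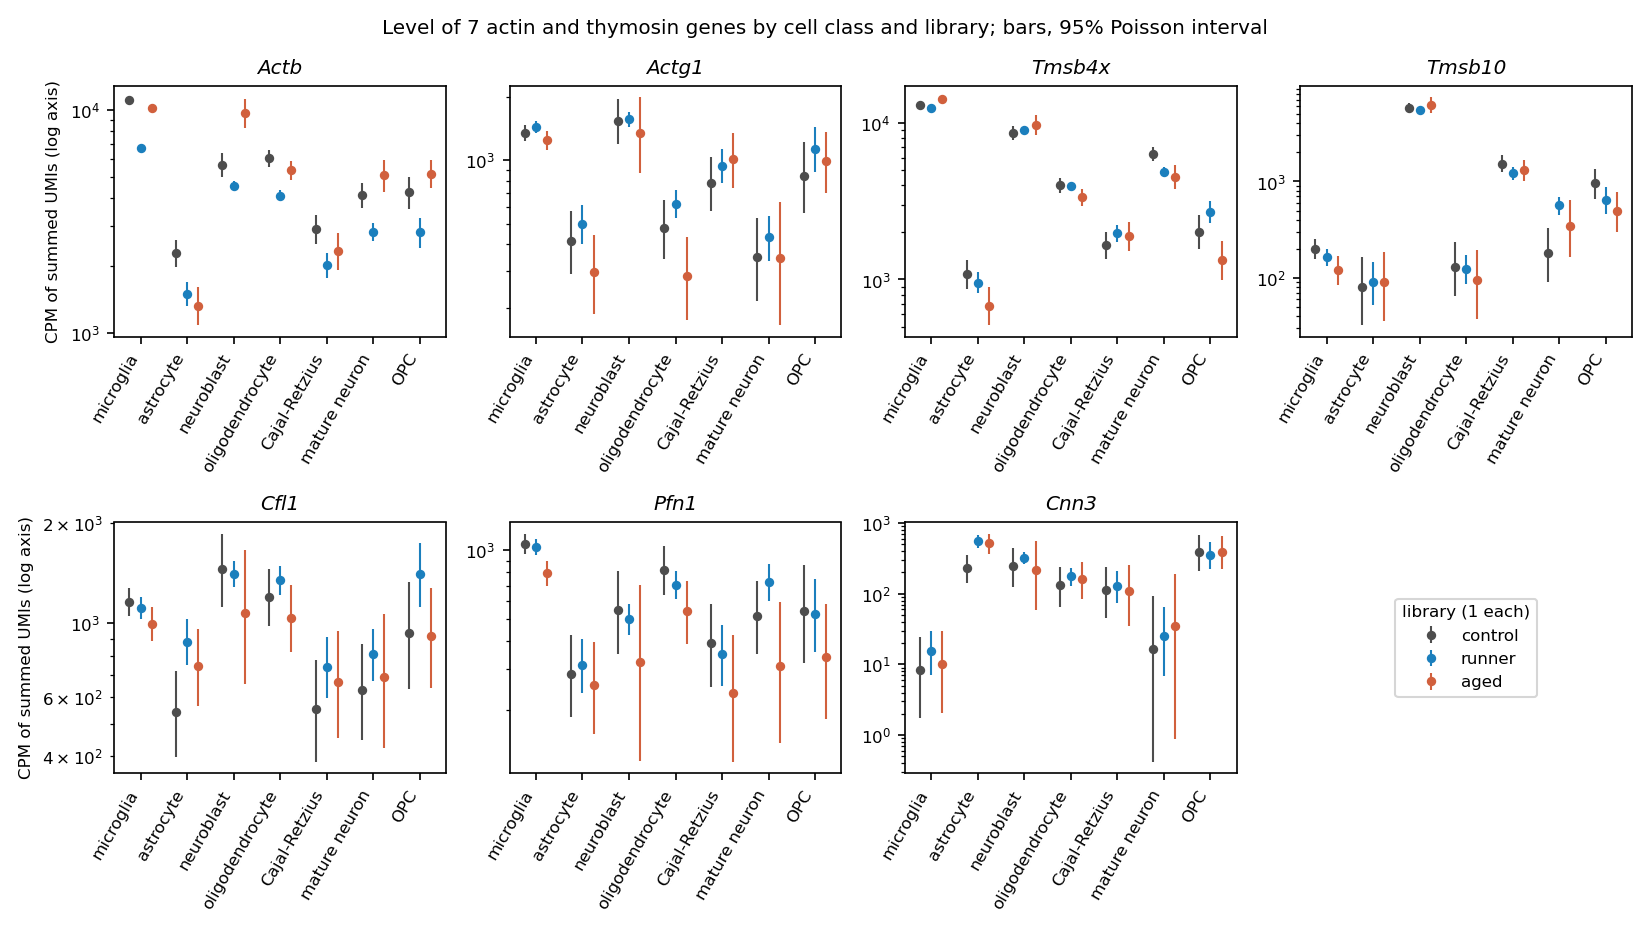
Level of each gene (CPM of summed UMIs, log axis) in 7 cell classes of the control, runner and aged libraries, with 95% Poisson intervals. OPC means oligodendrocyte precursor. The 3 libraries gave like orders of classes for Tmsb4x and Tmsb10, and Actb was lower in runner than in control in each class.

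The thymosins divided the classes sharply. Tmsb4x was highest in microglia-like cells, at 13015, 12419 and 14136 CPM in control, runner and aged. Neuroblast-like cells were next in all 3 libraries, at 8651, 8982 and 9696 CPM, and astrocyte-like cells were lowest, at 1081, 956 and 680. The span from highest to lowest class ran from 12.0-fold in control to 20.8-fold in aged.

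Tmsb10 had its highest level in neuroblast-like cells, at 5767 CPM in control, 5493 in runner and 6195 in aged. Cajal-Retzius-like cells, early-born neurons of the outer layer, followed at 1535, 1214 and 1311 CPM. Astrocyte-like cells had 80.5, 91.1 and 89.9 CPM, from only 7, 16 and 7 UMIs, so the span of 71.6-fold, 60.3-fold and 68.9-fold rests on few molecules at its lower end. A Tmsb10 UMI was found in 96.9%, 97.7% and 100% of neuroblast-like cells but in 9.38%, 9.68% and 9.62% of astrocyte-like cells, at median depths of 1380, 1979 and 1451 against 1303, 1305 and 1226 UMIs. After each cell was thinned to 1000 UMIs, the shares were 100%, 97.0% and 100% against 4.08%, 8.99% and 2.86%. The 16 control endothelial-like cells had 8839 CPM of Tmsb10 (7627 to 10189).

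The ratio of the thymosins to each other followed from this. In microglia-like cells there were 65.0 Tmsb4x UMIs for each Tmsb10 UMI in control, 75.6 in runner and 117 in aged. In neuroblast-like cells the same ratio was 1.5, 1.64 and 1.57. The intervals of the neuroblast-like ratios overlapped one another, and the highest bound among them was 2.00.

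Cofilin and profilin varied less between classes. Cfl1 was highest in neuroblast-like cells, at 1453, 1410 and 1077 CPM, and its span over the 7 classes was 2.69-fold, 1.90-fold and 1.62-fold. In the runner library neuroblast-like and oligodendrocyte precursor-like cells differed by less than their intervals, at 1410 and 1408 CPM. Pfn1 was highest in microglia-like cells, at 1068, 1036 and 793 CPM, and lowest in astrocyte-like cells of control and runner, at 288 and 313 CPM. Oligodendrocyte-like cells came next in control and aged (821 and 541 CPM), with intervals overlapping those of microglia-like cells.

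Calponin 3 had another order of classes. Cnn3 was lowest in microglia-like cells, the class in which Actb, Tmsb4x and Pfn1 were highest, at 8.35, 15.6 and 10.1 CPM from 3, 9 and 3 UMIs. Mature neuron-like cells came next at 16.6, 25.4 and 34.6 CPM. Those levels came from 1, 4 and 1 UMIs, too few to set the order of these low classes. Oligodendrocyte precursor-like cells led in control at 392 CPM, and astrocyte-like cells led in runner and aged at 552 and 514 CPM. The intervals of these classes overlapped in each library.

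Actb was lower in runner than in control in every class compared. The ratios of runner to control CPM were 0.614 (0.587 to 0.642) in microglia-like, 0.658 (0.545 to 0.795) in astrocyte-like, 0.807 (0.705 to 0.926) in neuroblast-like and 0.678 (0.610 to 0.754) in oligodendrocyte-like cells. In Cajal-Retzius-like cells the ratio was 0.690 (0.566 to 0.841), in mature neuron-like cells 0.684 (0.585 to 0.802) and in oligodendrocyte precursor-like cells 0.662 (0.526 to 0.835). Of the 557 genes with at least 20 UMIs in each of the 7 classes, 46 (8.26%) had ratios below 1 in all 7. By a stricter count, which abundant genes with narrow intervals meet more easily, 10 (1.8%) had intervals below 1 in all 7. Actb was 1 of them, and 6 were mitochondrially encoded genes. The median share of mitochondrially encoded UMIs was lower in runner too, for example 2.58% against 4.45% in microglia-like and 3.37% against 5.34% in neuroblast-like cells; its part in the result was not tested. With cells under 5% mitochondrially encoded UMIs only, the ratio was 1.73 in neuroblast-like and 1.13 in mature neuron-like cells, so the direction in those classes depended on the cell filter.

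**Figure D2:**
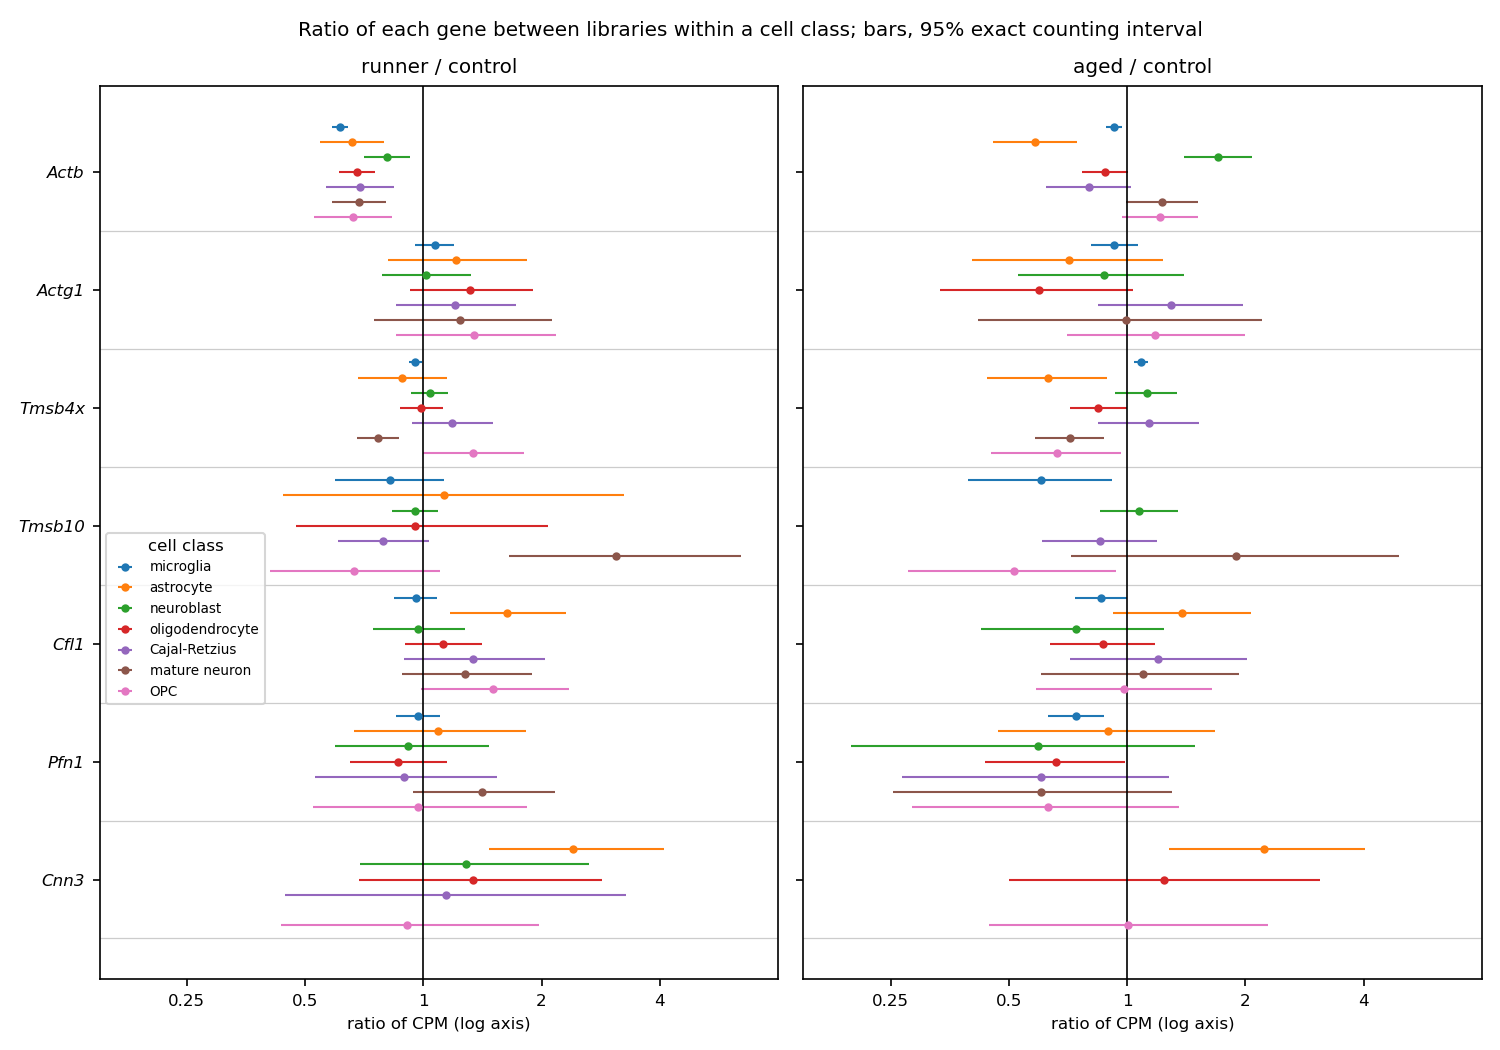
Ratio of CPM between libraries within a class (log axis), for the genes with at least 20 UMIs over both libraries, with 95% exact counting intervals; the vertical line marks 1. All 7 runner to control intervals of Actb lie below 1, while the aged to control ratios of Actb lie on both sides, from 0.583 to 1.71. Both panels use the same control library.

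Actb was spread unevenly over single cells. In microglia-like cells the fullest bin of width 2000 CPM was 2000 to 4000, with 30.3%, 31.6% and 28.9% of the control, runner and aged cells. Few cells held 8000 to 10000 CPM (2.05%, 1.69% and 0.995%), and a long upper tail held 30000 or more (18.0%, 4.80% and 18.4%). At 10000 CPM or more, a level chosen after the values were seen, there were 80 of 244 control cells (32.8%, exact interval 26.9 to 39.1), 54 of 354 runner cells (15.3%, 11.7 to 19.4) and 79 of 201 aged cells (39.3%, 32.5 to 46.4). The runner interval lay below both others, which overlapped. Intervals of cell shares, here and for the other classes below, treat the cells of 1 library as independent. They do not cover the spread between animals or preparations, so their separation only describes these libraries. Between 8000 and 12000 CPM, near that level, there were 12, 10 and 5 cells.

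These Actb-high cells carried 76.6%, 57.9% and 76.6% of all Actb UMIs of the microglia-like class in control, runner and aged. Their own Actb level was 28856, 26099 and 29628 CPM. In the remaining cells it was 3638, 3340 and 3229 CPM, and the runner to control ratio among them was 0.918 (0.846 to 0.996). The aged to control ratio among them was 0.887 (0.804 to 0.980). The split uses the Actb level of each cell, so levels and ratios on either side of it only describe these cells. Medians over cells were 4643, 3654 and 4604 CPM.

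Other classes had Actb-high cells too. They made up 8 of 32 control, 20 of 171 runner and 6 of 12 aged neuroblast-like cells (25%, 11.7% and 50%). In oligodendrocyte-like cells they made up 27.3%, 11.8% and 32.6%, and in mature neuron-like cells 29.0%, 5.17% and 42.9%. They were scarce in astrocyte-like cells (3 of 64, 1 of 124 and 1 of 52) and in Cajal-Retzius-like cells (2 of 49, 2 of 73 and 0 of 32). The 0 of 32 allows a share of up to 9.38% taken as 3 counts, or 10.9% as the upper end of the exact interval. The share was lowest in runner in 6 of the 7 classes, all but Cajal-Retzius-like cells, although the runner and control intervals overlapped in all of these but microglia-like cells. The runner interval lay below the aged one in microglia-like, neuroblast-like, oligodendrocyte-like and mature neuron-like cells. Among the remaining cells the runner to control ratio of Actb was below 1 in 5 classes, from 0.710 in Cajal-Retzius-like to 0.918 in microglia-like cells. It was 1.08 (0.877 to 1.36) in neuroblast-like and 1.18 (0.898 to 1.57) in mature neuron-like cells.

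**Figure D3:**
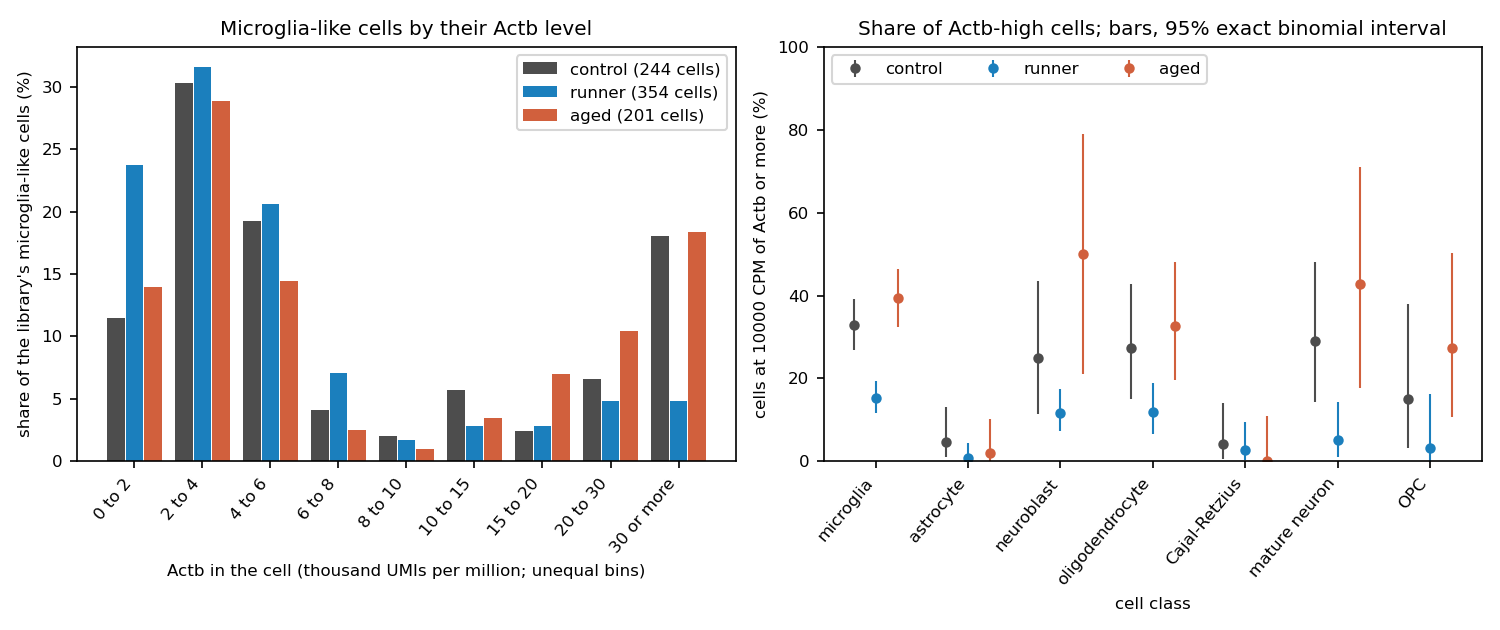
Left, share of microglia-like cells (%) by the Actb level of the cell, in unequal bins; right, share of cells at 10000 CPM of Actb or more in 7 classes, with 95% exact binomial intervals. In the left panel 18.0% of control, 4.80% of runner and 18.4% of aged cells lie at 30000 CPM or more, and at 10000 CPM or more runner has 15.3% against 32.8% and 39.3%.

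The Actb-high microglia-like cells differed in depth between libraries. Their median depth was 1124 UMIs in control and 824 in aged, against 1554 and 1763 in the remaining cells, whereas in runner the medians were 1612 and 1576. Median mitochondrial shares were 5.25% against 4.32% in control, 2.56% against 2.58% in runner and 4.27% against 3.86% in aged. Endothelial markers, the class with the most Actb, summed to 467, 508 and 472 CPM in the Actb-high cells and to 526, 562 and 543 CPM in the rest. Stress genes summed to 41974, 39085 and 36777 CPM against 41626, 42335 and 37606. Microglial markers summed to 34363, 46681 and 37849 CPM in the Actb-high cells and to 36377, 42980 and 43726 CPM in the rest. Erythroid markers summed to 486, 254 and 255 CPM against 110, 10518 and 137. The class included 1 cluster of 8 control, 22 runner and 7 aged cells with the haemoglobin gene Hbb-bs as its leading gene; without that cluster the runner to control ratio of Actb was 0.623.

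For most other members, Actb-high and remaining cells differed by less than counting error. Tmsb4x in Actb-high against remaining microglia-like cells was 13413 against 12851 CPM in control, 12905 against 12333 in runner and 13748 against 14274 in aged, with ratios of 1.04, 1.05 and 0.963 whose intervals held 1. Actg1 had ratios of 1.15, 1.14 and 1.04, Cfl1 1.03, 0.959 and 1.18, and Pfn1 0.877, 0.938 and 1.09, all with intervals holding 1. Cnn3 had 3 to 9 UMIs in the whole class, too few to compare. Tmsb10 was higher in the Actb-high cells of control only, at 2.05 (1.25 to 3.35) from 33 and 39 UMIs. Its ratios in runner and aged were 0.667 (0.309 to 1.29) and 0.560 (0.190 to 1.37), and the difference between libraries was not tested.

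A small set of genes went with Actb. Of 1916 genes with at least 20 UMIs in the microglia-like cells of each library, 18 (0.939%) were at least 2-fold higher in Actb-high cells in all 3 libraries, and 0 were 2-fold lower in all 3 (0%). Slc39a1, a zinc transporter, was the highest of them in control and runner, at 17.0, 22.7 and 9.45 times the level of the remaining cells. Kdm6b, a histone demethylase, was at 5.66, 4.77 and 10.8 times, and Bhlhe41, a transcriptional repressor, at 3.53, 10.4 and 13.3 times. The others were Zscan26, Pim1, Tmf1, Ptafr, Bmp2k, Kdelr2, Pan3, B4galt1, Nfia, Dusp3, Arglu1, Ncoa3, Pdcd4, Gm2a and Dpysl2. In the 112 Actb-high cells of the 6 other classes, the counts of these genes were set against those expected from the remaining cells of the same class and library. The largest excesses relative to expectation were those of Slc39a1 (42 UMIs against 3.71 expected), Bhlhe41 (43 against 7.01), Tmf1 (46 against 7.64) and Kdm6b (66 against 11.7). Not every gene of the set stood out there: Arglu1 had 40 against 25.8 and Ncoa3 3 against 2.47. Ptafr (0 against 0.408) and B4galt1 (1 against 0.642) had too few UMIs to compare.

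Actb also differed between libraries among barcodes that the mitochondrial filter set aside. These were pooled without cell classes, and the part of their cell makeup was not tested. Among barcodes with 10 to under 30% mitochondrially encoded UMIs, Actb was at 14771 CPM of nuclear-gene UMIs in control (448 barcodes), 2966 in runner (219) and 10367 in aged (205). At 30 to under 50% the values were 6339, 1601 and 4644, and at 50% or more they were 3453, 948 and 2065. In the 10 to under 30% range, barcodes without any endothelial marker had 15057, 3166 and 10101. Over all barcodes of that range microglial markers summed to 8398, 8125 and 11840. In control, runner and aged, 31, 4 and 5 barcodes there had 3 or more endothelial markers. Within the microglia-like class by depth, Actb was 21884, 7211 and 26148 CPM in cells under 1000 UMIs and 8226, 6868 and 7316 CPM at 1000 to under 2000 UMIs. At 2000 UMIs or more it was 13934, 6516 and 6092 CPM.

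Actg1 did not go along with Actb. Its runner to control ratio was above 1 in all 7 classes, from 1.01 (0.787 to 1.33) in neuroblast-like to 1.35 (0.854 to 2.17) in oligodendrocyte precursor-like cells, a pattern shared by 21 of the 557 genes (3.77%). Each of the 7 intervals held 1, so none of these differences exceeded counting error. Over all cells the ratio was 1.12 (1.03 to 1.22).

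The balance of the actins therefore differed between the libraries. In microglia-like cells there were 8.15 Actb UMIs for each Actg1 UMI in control (7.42 to 8.98), 4.68 in runner (4.34 to 5.05) and 8.14 in aged (7.31 to 9.09). The ratio was lower in runner than in control in each of the 7 classes, and the intervals were apart in microglia-like, oligodendrocyte-like and Cajal-Retzius-like cells. Oligodendrocyte-like cells had 12.8 in control, 6.59 in runner and 18.8 in aged. Neuroblast-like cells had 3.66, 2.91 and 7.16, with overlapping intervals for control and runner.

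**Figure D4:**
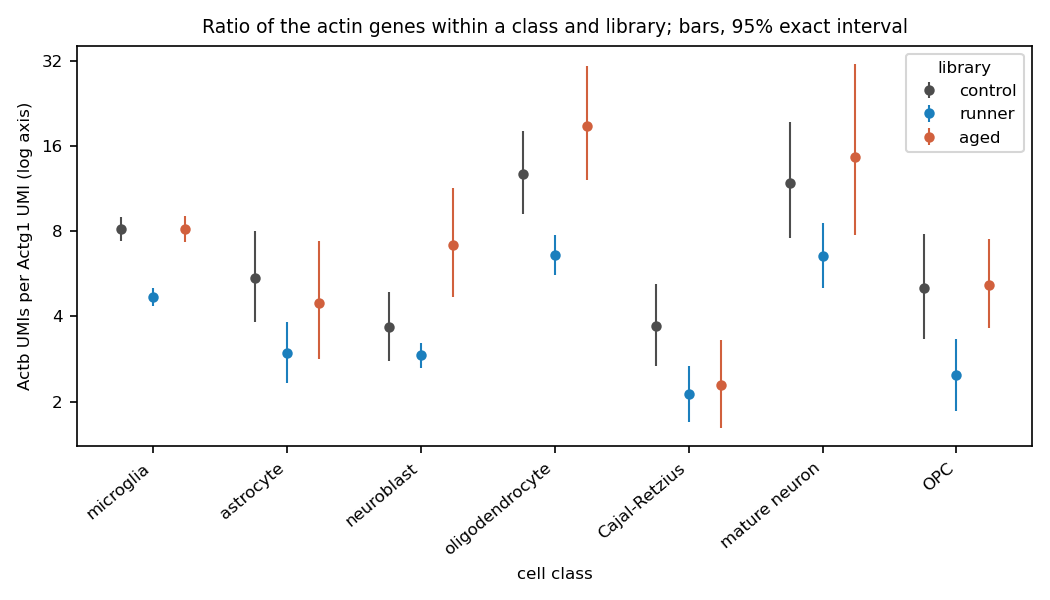
Actb UMIs per Actg1 UMI (log axis) in each class and library, with 95% exact intervals. The runner point is below the control point in each of the 7 classes, at 4.68 against 8.15 in microglia-like cells.

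Between aged and control, Actb had no single direction. The ratio was 0.583 (0.455 to 0.744) in astrocyte-like, 0.925 (0.882 to 0.970) in microglia-like and 1.71 (1.40 to 2.07) in neuroblast-like cells, the last from 12 aged cells. The microglia-like clusters lay on both sides of 1, at 1.07 (1.01 to 1.14) in the largest control cluster and 0.761 (0.688 to 0.841) in the next. In another cluster, with 34 of 244 control and 51 of 201 aged cells, the ratio was 1.53 (1.34 to 1.76). In the cluster led by Hbb-bs it was 1.44, with an interval holding 1. The ratio of the whole microglia-like class ranged from 0.769 after thinning to 1.16 as a mean over cells, so its side of 1 depended on the processing. In the neuroblast-like cells below 10000 CPM of Actb, the aged to control ratio was 0.883 (0.554 to 1.37). In astrocyte-like cells, with few Actb-high cells in either library, the ratio below that level was 0.650 (0.499 to 0.842).

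Tmsb4x moved little between libraries in microglia-like cells, where it was most abundant. Its ratio to control was 0.954 (0.920 to 0.990) in runner and 1.09 (1.04 to 1.13) in aged. In mature neuron-like cells it was lower in both, with 6327, 4846 and 4529 CPM in control, runner and aged, and ratios of 0.766 (0.676 to 0.868) and 0.716 (0.582 to 0.875). Both ratios use the same control cells. In the aged library the ratio was also below 1 in astrocyte-like (0.629, 0.441 to 0.890), oligodendrocyte-like (0.844, 0.713 to 0.997) and oligodendrocyte precursor-like cells (0.661, 0.450 to 0.966).

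Microglial markers were also found outside microglia-like cells, the class with the most Tmsb4x. The 11 microglial markers summed to 35789 to 43534 CPM in microglia-like cells and to between 162 and 648 CPM in the 6 other classes. In mature neuron-like cells they summed to 648 CPM in control, 293 in runner and 380 in aged, with 7, 9 and 6 of the 11 detected. Their part in the lower Tmsb4x was not tested. In astrocyte-like cells the markers were at 230 CPM in control and 385 in aged.

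Tmsb10 differed between libraries over all cells more than within neuroblast-like cells. Over all cells it was 913 CPM in control, 1380 in runner and 507 in aged, with ratios to control of 1.51 (1.39 to 1.65) and 0.555 (0.484 to 0.636). Within neuroblast-like cells the ratios were 0.952 (0.835 to 1.09) and 1.07 (0.854 to 1.34), both intervals holding 1. Neuroblast-like cells carried 36.1% of all Tmsb10 UMIs in control, 76.1% in runner and 37.8% in aged, and they carried 5.71%, 19.1% and 3.09% of all UMIs. The 16 endothelial-like cells carried a further 27.0% in control. With the 7 classes weighted as in control, the ratios were 0.934 for runner and 0.935 for aged.

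**Figure D5:**
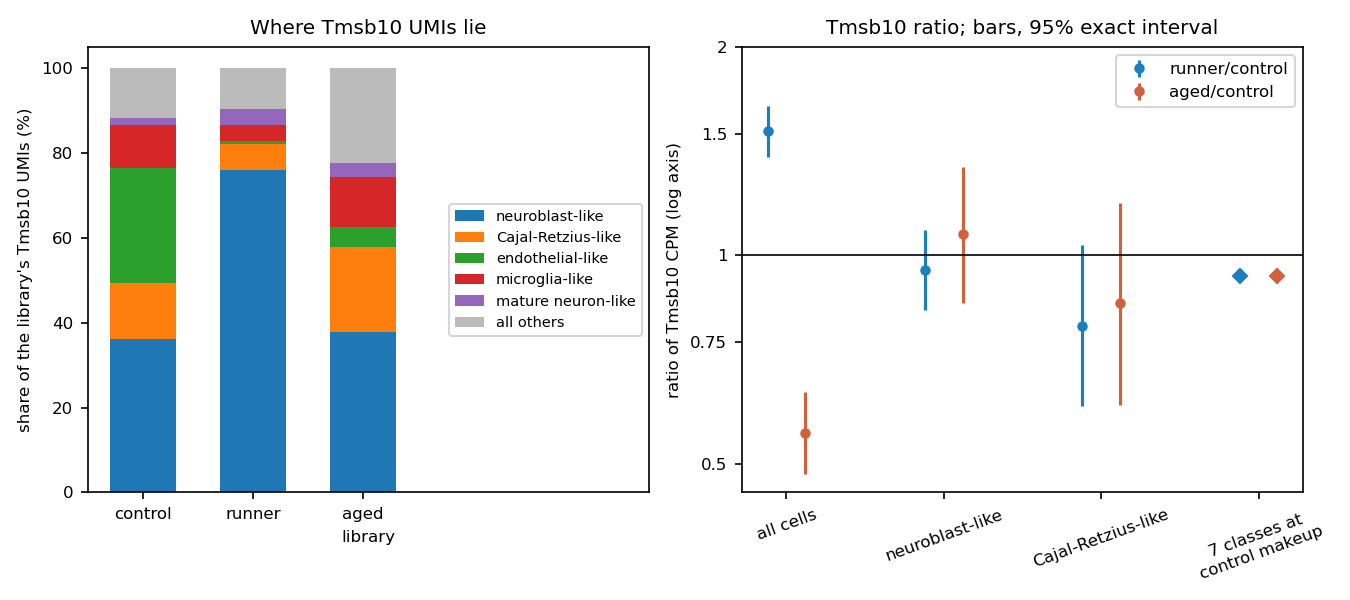
Left, share of the Tmsb10 UMIs of each library (%) by cell class; right, ratio of Tmsb10 CPM to control (log axis) over all cells, in the classes with the highest levels, and over 7 classes weighted by the control makeup, with 95% exact intervals (none for the weighted value). Over all cells the ratios are 1.51 and 0.555, and within neuroblast-like cells they are 0.952 and 1.07.

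A difference within a class was seen for Tmsb10 in mature neuron-like cells. It was 183 CPM in control, 566 in runner and 346 in aged, from 11, 89 and 10 UMIs. The runner ratio was 3.1 (1.65 to 6.43), and the aged ratio of 1.89 (0.721 to 4.91) had an interval holding 1. A UMI was found in 19.4%, 48.3% and 28.6% of the cells at median depths of 1819, 2824 and 1613 UMIs, and in 12.5%, 34.5% and 10.0% after thinning. Neuroblast markers summed to 465, 674 and 380 CPM in this class, with 6, 8 and 3 of 11 detected, and their part in the difference was not tested. In microglia-like cells Tmsb10 was lower in aged, at 121 against 200 CPM from 36 and 72 UMIs, a ratio of 0.604 (0.393 to 0.913). There 14.4% of aged and 22.1% of control cells held a UMI (11.9% and 14.9% after thinning), beside 9.62% and 9.38% (2.86% and 4.08% after thinning) in astrocyte-like cells, the class with the lowest level.

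Pfn1 was lower in aged than in control in all 7 classes. The levels in microglia-like cells were 1068 CPM in control and 793 in aged, a ratio of 0.742 (0.629 to 0.875). In oligodendrocyte-like cells the ratio was 0.658 (0.434 to 0.986), and in the other 5 classes it lay between 0.593 and 0.893 with intervals holding 1. Of the 238 genes measured in all 7 classes for this comparison, 34 (14.3%) were below 1 in all 7, so Pfn1 was 1 of many. Against control, runner had ratios on both sides of 1, from 0.861 to 1.41, with all intervals holding 1.

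Cfl1 was higher in runner than in control astrocyte-like cells. It was 541 CPM in control, 882 in runner and 745 in aged, with ratios of 1.63 (1.17 to 2.31) and 1.38 (0.921 to 2.07). The share of astrocyte-like cells with a UMI was 56.3%, 63.7% and 57.7%, and 46.9%, 52.8% and 45.7% after thinning. The runner ratio was also above 1 in oligodendrocyte precursor-like (1.51, 0.986 to 2.36) and Cajal-Retzius-like cells (1.34, 0.892 to 2.04), with intervals holding 1. In microglia-like cells the runner ratio was 0.957 (0.845 to 1.08) and the aged ratio 0.858 (0.737 to 0.998).

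Cnn3 in astrocyte-like cells was higher in both other libraries than in control. It was 230 CPM in control, 552 in runner and 514 in aged, from 20, 97 and 40 UMIs. The ratios were 2.40 (1.47 to 4.10) and 2.23 (1.27 to 4.03), which share the control cells, and the runner and aged levels overlapped. A Cnn3 UMI was found in 23.4%, 48.4% and 38.5% of astrocyte-like cells, and in 18.4%, 43.8% and 37.1% after thinning. In microglia-like cells, at median depths of 1477, 1583 and 1408 UMIs, the shares were 1.23%, 1.98% and 1.49%. Where Cnn3 was measured in the other classes, the intervals of its ratios held 1.

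The members were also counted together, by class, against a ratio of 1.5-fold. In microglia-like cells, 6 of the 7 members had at least 20 UMIs, Cnn3 being the exception. Against control, 1 of the 6 was lower in runner (Actb) and 0 were higher, beside 9.03% lower and 14.9% higher among 5108 genes. In aged, 1 of the 6 was lower (Tmsb10) and 0 were higher, beside 10.8% and 15.2% of 4036 genes. Among genes with at least 200 UMIs, where counting noise is smaller, 4.07% were lower and 5.37% higher in runner (615 genes), and 3.1% lower and 2.14% higher in aged (420 genes). The median log2 ratio of the members was -0.07 in runner and -0.17 in aged, beside 0.05 and 0.04 over all genes measured.

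In astrocyte-like cells all 7 members were measured for runner, with 2 higher (Cfl1 and Cnn3) and 1 lower (Actb), beside 19.4% and 10.1% of 2009 genes. For aged, 6 were measured, with 1 higher (Cnn3) and 2 lower (Actb and Tmsb4x), beside 13.4% and 14% of 1157 genes. Among genes with at least 200 UMIs, 5.98% were higher and 7.69% lower in runner (117 genes), and 5% higher and 1.67% lower in aged (60 genes). The median log2 ratios were 0.18 and -0.33, beside 0.07 and -0.03 over all genes. In aged oligodendrocyte precursor-like cells 0 of 7 were higher and 3 lower (Tmsb4x, Tmsb10 and Pfn1), beside 13.4% and 19% of 558 genes. In aged oligodendrocyte-like cells 0 of 6 were higher and 2 lower (Actg1 and Pfn1), beside 16.4% and 17.9% of 1277 genes. With 6 or 7 members, these counts single out no direction for the members as a set.

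Other genes of actin dynamics were taken from 10 lists of 118 genes, of which 112 were in the tables. In microglia-like cells 63 were measured for runner, with 7 higher and 3 lower by 1.5-fold, and 57 for aged, with 4 higher and 3 lower, both under the background shares above. Arpc4, a subunit of the Arp2/3 complex that nucleates branched filaments, was at 245 CPM in control and 464 in runner, a ratio of 1.89 (1.48 to 2.44). Actr2, another subunit of that complex, had a ratio of 0.719 (0.524 to 0.988). Both were named for their extreme ratios, so they do not describe the complex as a whole. Of 16 genes measured in the list of that complex and of nucleation, 2 were higher and 0 lower by 1.5-fold. Marcks, a membrane-bound actin crosslinker, had a runner ratio of 0.751 (0.643 to 0.877).

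Dstn, destrin, a close relative of cofilin, was higher in both other libraries. In microglia-like cells it was at 131, 232 and 235 CPM in control, runner and aged, with ratios of 1.77 (1.26 to 2.53) and 1.80 (1.23 to 2.66) that share the control cells. Its level in control was the lowest of the 3 libraries in each of the 7 classes. The share of all genes with that pattern was not counted. In aged microglia-like cells Rac1, a GTPase that sets off branched filaments, had a ratio of 1.65 (1.03 to 2.66), and the lowest ratios were those of Tmod3, a capping protein (0.345, 0.114 to 0.884), and Arpc3 (0.710, 0.517 to 0.968).

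In astrocyte-like cells 34 genes of the lists were measured for runner, with 9 higher and 4 lower, beside the 19.4% and 10.1% of all genes above. Myl6, a light chain of non-muscle myosin, was at 230 CPM in control and 404 in runner, a ratio of 1.76 (1.06 to 3.05). Arpc5l had 20 UMIs in runner and 2 in control, a ratio of 4.95 (1.20 to 43.6). For aged only 11 were measured, with 1 higher and 1 lower beside 13.4% and 14%, and no interval excluded 1.

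In oligodendrocyte-like cells 44 genes were measured for runner, with 10 higher and 4 lower, beside 17.5% and 14.3% of 2761 genes. For aged 27 were measured, with 5 higher and 6 lower, beside the 16.4% and 17.9% above. Marcks was at 440 CPM in control, 143 in runner and 13.5 in aged, from 37, 40 and 1 UMIs, with ratios of 0.324 (0.202 to 0.521) and 0.0307 (0.000757 to 0.182). The control cells of this class included 7, and the runner cells 10, of a second cluster with Enpp6, a marker of newly formed oligodendrocytes, among its leading genes, and the aged library had 0; the part of this makeup was not tested. Gsn, gelsolin, which severs filaments, had a runner ratio of 1.97 (1.36 to 2.94).

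The pattern of each member over 25 class-by-library profiles was compared with 4867 genes by Pearson's r of log2(CPM + 20), as a description of points that share libraries and depth. Actb and Tmsb4x were each other's nearest gene (r = 0.80). Arpc2 and Tpm3, a tropomyosin, followed for Tmsb4x at 0.80 and 0.79, and Bach1 and Slc40a1 for Actb at 0.73 and 0.72. Actg1 was nearest to Marcks (0.85), and then to Snhg1 and Sox4 (0.83 and 0.81). Between the actins themselves r was 0.33, and between the thymosins 0.27.

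For Tmsb10 the nearest gene was Gm9844 (0.92), its near copy, and then Tubb5, a beta-tubulin (0.90), and Rpl23 (0.87). Cnn3 was nearest to Rcn2 (0.84), with Pdcd6 and Eci2 at 0.80 each, and had negative values against Tmsb4x, Pfn1 and Actb (-0.60, -0.55 and -0.38). Cfl1 was nearest to Brd7 (0.77), Cdk4 and Adrm1 (0.74 each), and Pfn1 to Ube2d3 (0.76), Crybb1 (0.75) and Arpc1b (0.74).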

How the data were processed

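Raw UMI counts per gene and barcode, 1 deposited table per library, were the starting point. The authors used Cell Ranger 2.1.1, Seurat 3.1.0 and GRCm38, per the submitters' processing notes. For aligner, annotation release and cell-calling rule: not given in the sources used here. Barcodes with at least 200 genes and under 10% mitochondrially encoded UMIs were kept, and Scrublet calls (2 control, 6 runner and 2 aged, at an expected rate of 0.05) removed. This used 21.7%, 28.9% and 16.2% of 2356, 3328 and 2421 barcodes. Cells were clustered jointly (Scanpy 1.11.5; 2000 variable genes without the members, 30 components, 15 neighbours, Leiden resolution 1.0). Of 15 clusters, 1 was left unnamed. A cluster took the marker list with the most of its 10 leading genes, given at least 3 markers in 25% of cells at 2-fold or more; cycling cells were named by proliferation genes. These thresholds were set with earlier results known. Pyramidal and granule lists were merged as mature neuron-like, a single cluster with 1 marker among its leading genes.

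UMIs were summed per class and library and divided by all UMIs of the class (CPM). Levels carry Poisson intervals, ratios exact conditional binomial and shares Clopper-Pearson intervals, all 95%. Genes with at least 20 UMIs over both libraries counted as measured. Pathway genes named were the 2 highest and 2 lowest ratios with intervals excluding 1; like-patterned genes were the 3 with the highest r among genes with at least 100 UMIs. The interval was tested on simulated Poisson counts, the model it assumes, so that test does not cover uneven spread between cells. Members and lists were chosen with earlier results of these data known. Sequences came from GENCODE M21 and RefSeq. Alternatives changed scaling, cell filters, thinning, clustering and gene minimum.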

Additional observations from a re-analysis of the deposited data

Results flagged for a closer look

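For 2 members the aged to control ratio lay above 1 in some classes and below 1 in others, by counting intervals that left out 1. Actb had a ratio of 1.71 in neuroblast-like cells but 0.925 in microglia-like and 0.583 in astrocyte-like cells. The Actb ratio of microglia-like cells went from 0.769 to 1.16 over the alternatives and from 0.761 to 1.53 over clusters. Over the alternatives the Actb ratio went from 0.458 to 0.954 in astrocyte-like and from 1.27 to 2.32 in neuroblast-like cells. Tmsb4x had a ratio of 1.09 in microglia-like cells but 0.629 in astrocyte-like, 0.844 in oligodendrocyte-like, 0.716 in mature neuron-like and 0.661 in oligodendrocyte precursor-like cells. With 1 library per group, the difference between classes was not tested for either gene. Beside the Actb ratio of neuroblast-like cells stands the count of Actb-high cells, 6 of 12 in aged and 8 of 32 in control.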

How the results depend on the processing

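No paired analysis was possible because each group had 1 library, and for the same reason no library could be left out. Of 17 alternatives, 14 were planned and 3 were added after seeing the data (totals without haemoglobin, shared barcodes left out, and without the microglia-like cluster led by haemoglobin). Over these, 90 member ratios gave 1480 values: 1433 stayed inside the counting interval of the reported ratio, 47 left it, and 0 ratios past 1.5-fold changed side. A gene minimum of 5 or 50 UMIs cannot change a ratio, so the 90 and 76 values from those settings could not leave it. Intervals from few UMIs were wide, and staying inside them shows little. In 39 ratios, mostly near 1, at least 1 alternative crossed 1. The members' median log2 ratios in microglia-like and astrocyte-like cells stayed inside a range under every alternative run. That range was set by the interval bounds of the middle member or members. In astrocyte-like cells it was wide, from 0.440 to 3.25 as a ratio for runner (Tmsb10) and from 0.403 to 1.67 for aged (Actg1 and Pfn1). Staying inside it therefore says little about stability. The median log2 ratio of runner microglia-like cells was 0.01 with cells under 20% mitochondrially encoded UMIs. For aged astrocyte-like cells it was 0.07 after thinning to 1000 UMIs per cell, where only 35 aged cells remained.

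Actb depended most on the cell filter. Its runner to control ratio stayed between 0.534 and 0.708 in microglia-like and between 0.556 and 0.726 in astrocyte-like cells. With cells under 5% mitochondrially encoded UMIs it was 1.73 in neuroblast-like and 1.13 in mature neuron-like cells, against 0.807 and 0.684; the cause was not tested. After thinning it was 1.11 in neuroblast-like cells. Its aged to control ratio in microglia-like cells, 0.925, was 0.769 after thinning and 1.16 as a mean of per-cell CPM; the cause was not tested. The share of Actb-high microglia-like cells, taken at 8000 or 15000 CPM in place of 10000, was 34.8% or 27.0% in control, 16.9% or 12.4% in runner and 40.3% or 35.8% in aged. Cnn3 in astrocyte-like cells stayed between 1.99 and 2.60 in runner and between 1.56 and 2.29 in aged, and Cfl1 in runner astrocyte-like cells between 1.24 and 1.68. Tmsb10 in runner mature neuron-like cells ranged from 1.90 to 6.92, and in aged microglia-like cells from 0.510 to 0.948. Depth limits Cnn3 in microglia-like and Tmsb10 in astrocyte-like cells, at 3 to 16 UMIs per library. Cnn3 in mature neuron-like cells had still fewer, at 1, 4 and 1 UMIs in control, runner and aged.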
